A study of Homo sapiens with 18 samples.

Results

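Peaks of the leukaemia fusion protein AML1-ETO were examined at 4 genes for RNA-binding proteins, IGF2BP1, IGF2BP2, IGF2BP3 and LIN28B, out of 19974 protein-coding genes on chromosomes 1 to 22 and X. A peak was assigned to a gene when it overlapped the annotated body or the 10 kb on either side by at least 1 bp. The genes were chosen by their positions relative to the called peaks with results of these lists known, and IGF2BP3 was selected on the width of its peak in the shared list, one of the widest. Its peak number and width are therefore descriptions, and no test is given on them.

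The 18 libraries came from Kasumi-1, an acute myeloid leukaemia line with the t(8;21) translocation, engineered to carry Flag-tagged AML1-ETO, in 6 groups of 3. Control cells and cells in which miR-130a, a microRNA, was knocked down were sorted as viable GFP+ cells 3 days after transduction, and each condition was profiled by CUT&RUN with anti-ETO, anti-Flag or mouse IgG. CUT&RUN uses an antibody to bring a nuclease to a bound protein and sequences the DNA that is released. All groups share the tagged fusion protein and 1 cell line, the vector given to control cells is not described in the labels, and peaks of the IgG libraries were not analysed here. The values are positions in 4 single-antibody lists (control anti-ETO, knockdown anti-ETO, control anti-Flag and knockdown anti-Flag) and in lists the authors derived from them, with 1 list per group and no score. Depth behind a call and spread between libraries are thus unknown, and no difference between conditions below could be tested. Markers of the cell line could not be checked, since the lists hold no expression.

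IGF2BP1, IGF2BP2 and IGF2BP3 are paralogous proteins with RRM and KH domains that bind messenger RNAs, many of them carrying m6A, and affect their stability, transport and translation. They are abundant in the embryo, and IGF2BP1 and IGF2BP3 are largely silent in adult tissues and expressed again in many cancers. LIN28B, an RNA-binding protein of embryonic and fetal cells, binds precursors of the let-7 microRNAs and blocks their maturation, and let-7 in turn represses LIN28B, the IGF2BP genes and HMGA2. In blood, this circuit is known for setting fetal against adult properties of stem cells.

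IGF2BP3 was the member with a peak in all 4 single-antibody lists. Across 8 kb of DNA at its start, the lists held wide peaks that included the promoter. The 250 bases before the start of IGF2BP3 are shown because they lay inside a peak of every single-antibody list, and those of IGF2BP2 and LIN28B are shown for contrast, because neither overlapped any peak. Sequences are from RefSeq (GRCh38.p14), written 5′ to 3′ on the strand of the gene, and capitals mark the E-box hexamer CANNTG, searched on both strands. Where a gene has several annotated starts, the one listed first was taken. IGF2BP3 lies on the minus strand and its stretch is chr7:23470492-23470741, that of IGF2BP2 (minus strand) is chr3:185825043-185825292, and that of LIN28B (plus strand) is chr6:104940715-104940964.
IGF2BP3: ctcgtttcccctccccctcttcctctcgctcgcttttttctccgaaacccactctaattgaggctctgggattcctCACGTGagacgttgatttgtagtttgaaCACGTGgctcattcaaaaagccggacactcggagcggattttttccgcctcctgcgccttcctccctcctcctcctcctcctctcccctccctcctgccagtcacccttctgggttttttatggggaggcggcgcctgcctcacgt
IGF2BP2: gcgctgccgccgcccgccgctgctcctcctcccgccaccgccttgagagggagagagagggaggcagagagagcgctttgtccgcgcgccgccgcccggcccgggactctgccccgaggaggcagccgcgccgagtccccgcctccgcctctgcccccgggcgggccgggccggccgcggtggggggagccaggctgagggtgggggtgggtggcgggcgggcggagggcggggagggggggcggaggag
LIN28B: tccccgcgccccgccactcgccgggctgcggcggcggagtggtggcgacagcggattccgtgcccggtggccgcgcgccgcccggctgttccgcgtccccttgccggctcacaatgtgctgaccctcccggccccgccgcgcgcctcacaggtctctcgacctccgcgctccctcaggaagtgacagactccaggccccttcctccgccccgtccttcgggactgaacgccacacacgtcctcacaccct

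The IGF2BP3 promoter window, which runs from 250 bases before the start to 50 after it, held 2 E-boxes. Both had the letters CACGTG, and they began 174 and 146 bases before the start. At least 1 CACGTG was found in 7.27% of the 34961 promoter windows of the reference table and at least 2 in 0.661%. Among the windows that overlapped a peak in all 4 single-antibody lists, as that of IGF2BP3 did, these shares were 10.4% and 1.04%. The RUNX core hexamer TGTGGT is the kind of site bound by the RUNX1 part of the fusion. It was absent on both strands from the windows of IGF2BP3, IGF2BP2 and LIN28B. Of all windows 13.1% held it, against 10.9% of those with a peak in all 4 lists and 14.4% of those with a peak in none. The first-listed windows of IGF2BP2 and LIN28B also held no CANNTG, which 68.7% of all windows held. Of windows with a peak in all 4 lists 57.4% held it, against 73.1% of those with a peak in none. Over all windows CANNTG was thus less frequent where peaks were called, unlike in the 3 sequences shown. A further annotated start of LIN28B had a CACGTG 47 bases before it and one of IGF2BP2 had 2 CANNTG in its window, and neither window overlapped a peak in any list. GC content was 56.3% for IGF2BP3, 80.7% for IGF2BP2 and 73.0% for LIN28B, against a median of 58.7% over all windows. A promoter window overlapped a peak in all 4 single-antibody lists in 13.8% of cases, and the median GC content of those was 68.5%, so the GC content of IGF2BP3 lay below that of most such promoters (lower quartile 62.3%). The E-box search was added after the sequence had been seen. The sequence under the rest of the IGF2BP3 peaks was not used here.

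Counts over the 4 genes were small. With control anti-ETO, 1 of the 4 genes had a peak, where 47.6% of all protein-coding genes did. Knockdown anti-ETO also gave 1 gene, against 53.8% of all genes, and knockdown anti-Flag 1 gene, against 42.2%. Control anti-Flag gave 2 genes, against 50.2%. IGF2BP3 was in each of these counts, and IGF2BP1 was the other gene of control anti-Flag. The shared list, which holds sites called by both antibodies in both conditions, had peaks at 1 of the 4 genes (35.1% of all genes). The control-unique list had 0 (16.9% of all genes) and the knockdown-unique list 0 (18.4% of all genes). Because the group was chosen with these lists in view, nothing is read from its counts.

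**Figure D1:**
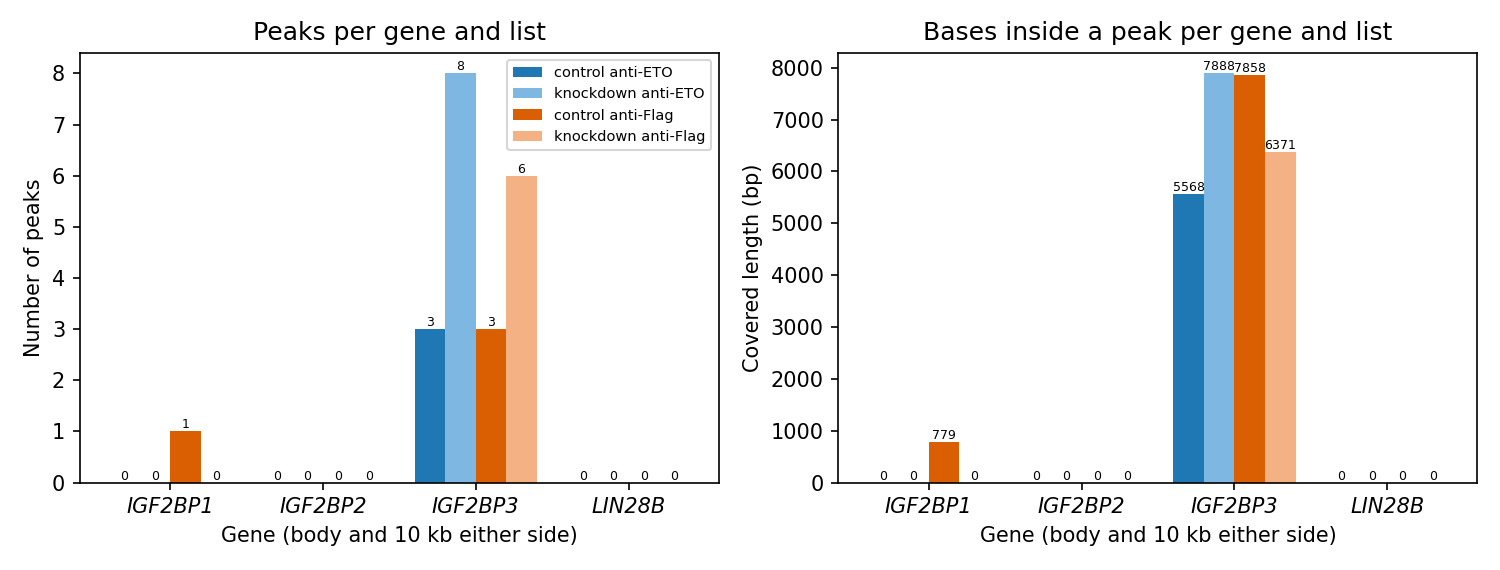
Number of peaks (left) and bases inside a peak (right, in bp) at each of the 4 genes, counted over the gene body and 10 kb either side, with 1 bar per single-antibody list and no error bar because each group has 1 list. IGF2BP3 had 3 to 8 peaks covering 5568 to 7888 bp, IGF2BP1 had 1 peak of 779 bp in control anti-Flag, and IGF2BP2 and LIN28B had 0 in every list.

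IGF2BP3 (gene ID 10643, chromosome 7, 23310209 to 23470491, minus strand, GRCh38) spans 160 kb. Its peaks all lay within 8 kb of the gene start, and the rest of the gene body had no call in any single-antibody list. Calls of all 4 lists met in a pair of stretches, one at the gene start and a smaller one inside the gene. The authors' shared list gives them as chromosome 7, 23469742 to 23477607 (7866 bp), from 0.749 kb inside the gene to 7.12 kb upstream of it, and chromosome 7, 23462843 to 23463665 (823 bp), 6.83 to 7.65 kb inside. Exon positions were not used here, so exon and intron were not told apart. No other annotated gene overlapped the upstream stretch, and the next annotation upstream was the pseudogene LOC389473, 10.2 kb from the start of IGF2BP3.

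With control anti-ETO, 3 peaks were called at IGF2BP3, covering 5568 bp. The 2 at the gene start were 2385 bp wide (23470107 to 23472491) and 2955 bp wide (23472949 to 23475903), wider than 98.7% and 99.6% of that list. The inner site was a 228-bp peak (23463182 to 23463409), wider than 17.5% of the list. The peaks at the gene start were thus among the widest of that list, and the inner one was among the narrow ones.

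With knockdown anti-ETO, 8 peaks covered 7888 bp. At the gene start lay 4 of them, of 2792 bp (23469742 to 23472533), 1432 bp, 1745 bp and 516 bp (23477063 to 23477578). The inner site had a 417-bp peak. The remaining 3 peaks, of 186 bp (23464114 to 23464299), 541 bp (23467373 to 23467913) and 259 bp (23469074 to 23469332), lay inside the gene between the inner site and the gene start, where the other 3 lists had no call.

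With control anti-Flag, 3 peaks covered 7858 bp. The peaks at the gene start were 4207 bp (23470083 to 23474289) and 3120 bp (23474488 to 23477607) wide, ranking 25 and 120 by width among 23162 peaks, and the inner peak was 531 bp wide. With knockdown anti-Flag, 6 peaks covered 6371 bp. The widest was 2382 bp (23470106 to 23472487), 4 others at the gene start were 348 to 1598 bp, and the inner peak was 379 bp wide. In both conditions the anti-Flag calls therefore took in the same pair of stretches, in more and narrower pieces after knockdown. The whole anti-Flag list also had more and narrower peaks after knockdown. It held 25961 peaks of median 364 bp, against 23162 of median 416 bp in control.

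**Figure D2:**
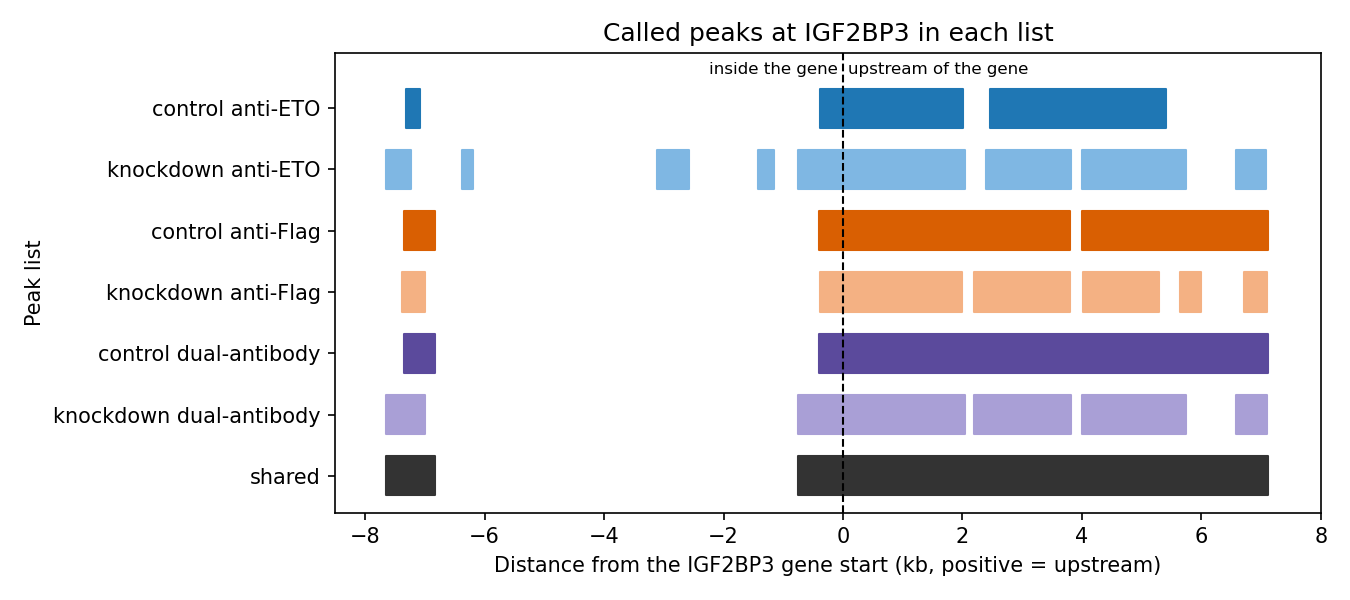
Peaks at IGF2BP3 drawn to scale against the distance from the gene start (kb, positive values upstream, dashed line at the start), with 1 row per list; the dual-antibody and shared rows are the authors' derived lists. All 4 single-antibody rows cover the gene start and the site about 7 kb inside the gene, and the 3 further peaks inside the gene are in the knockdown anti-ETO row alone.

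Covered length at IGF2BP3 was higher after knockdown with anti-ETO and lower with anti-Flag. It went from 5568 to 7888 bp with anti-ETO, a ratio of 1.42, while the whole anti-ETO list went from 8.97 to 15.0 Mb, a ratio of 1.67. It went from 7858 to 6371 bp with anti-Flag, a ratio of 0.811, while the whole anti-Flag list went from 13.5 to 13.2 Mb, a ratio of 0.975. Each gene-level ratio thus lay on the same side of 1 as that of its list. The number of peaks in the list was 1.58 times as high after knockdown for anti-ETO and 1.12 times for anti-Flag. Whether the longer lists play a part at IGF2BP3 was not tested. A further count kept only the widest peaks of each list, as many as the shortest list holds. The knockdown minus control difference over the 4 genes was then 1875 bp for anti-ETO, against 2320 bp with the full lists. For anti-Flag it was -2266 bp, the same as with the full lists. Every anti-Flag peak at these genes was wide enough to be kept, so this value could not change. It therefore shows nothing about list length. The -2266 bp include the 779-bp IGF2BP1 peak, and IGF2BP3 alone gave -1487 bp with the full lists. Part of the higher peak number came from calls split by short gaps: with peaks closer than 500 bp joined, IGF2BP3 had 2 control and 5 knockdown anti-ETO peaks, and 2 control and 3 knockdown anti-Flag peaks. The direction of the anti-Flag peak number also depended on the window. Over the 4 genes there were 4 control and 6 knockdown peaks with 10-kb flanks, 3 and 2 in the gene bodies alone, and 8 and 6 with 50-kb flanks. The control counts include the 1 IGF2BP1 peak. IGF2BP3 alone had 3 and 6, 2 and 2, and 7 and 6 peaks in the same order. Anti-Flag covered length over the 4 genes was lower after knockdown in each window (-2266, -954 and -3517 bp). Each of these values includes the 779-bp IGF2BP1 peak of control, which makes up most of the gene-body value. In its gene body IGF2BP3 alone had 940 bp in control and 765 bp in knockdown.

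Most called bases were the same in both conditions. Of the bases in control anti-ETO peaks at IGF2BP3, 94.1% (5240 of 5568 bp) were also in a knockdown anti-ETO peak, and these made up 66.4% of the knockdown bases. Of the bases in knockdown anti-Flag peaks, 99.6% (6345 of 6371 bp) were also in a control anti-Flag peak, and these made up 80.7% of the control bases. For anti-ETO the condition with the shorter call was control, and for anti-Flag it was knockdown. Between antibodies, 96.4% of the control anti-ETO bases were in a control anti-Flag peak, and 72.2% of the knockdown anti-ETO bases were in a knockdown anti-Flag peak. Seen from anti-Flag the order was the other way, with 68.3% of the control bases and 89.4% of the knockdown bases in an anti-ETO peak of the same condition. The 3 peaks inside the gene that only knockdown anti-ETO called are part of the lower anti-ETO share.

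The wide interval at the gene start was not uniform. Of its 7866 bp, 4999 bp (63.6%) were called in all 4 lists, 686 bp in 3, 909 bp in 2 and 1272 bp (16.2%) in 1. The bases called in all 4 lists formed 3 blocks. The first ran from 384 bp inside the gene to 1996 bp upstream (2381 bp) and held the whole promoter window, the next ran from 2458 to 3798 bp upstream (1341 bp), and the last from 4019 to 5295 bp upstream (1277 bp). Control anti-ETO, knockdown anti-ETO and knockdown anti-Flag each had a gap about 2 kb upstream (457, 344 and 204 bp long), which control anti-Flag bridged. Knockdown anti-ETO, control anti-Flag and knockdown anti-Flag each had a gap near 4 kb upstream (178, 198 and 220 bp long), which control anti-ETO bridged. Beyond 5.41 kb upstream control anti-ETO had no call, and the other 3 lists had calls to about 7.1 kb.

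Because each antibody bridged the gap of the other in control, the authors' control dual-antibody list held a single interval there of 7525 bp (23470083 to 23477607), ranking 3 by width among 12247. Their knockdown dual-antibody list held 4 intervals over the same stretch, of 2792, 1618, 1745 and 525 bp, and the shared list joined them again into the 7866-bp interval. That interval ranked 3 by width among 8731 shared peaks, whose median was 1047 bp, and the next narrower one was 7103 bp. It contained 4 knockdown anti-ETO peaks, a number reached or passed in 0.0802% of shared peaks, and 5 knockdown anti-Flag peaks, reached or passed in 0.149%. Its 2 peaks of control anti-ETO were reached or passed in 9.94% of shared peaks and its 2 of control anti-Flag in 19.4%. Among the 39 shared peaks of at least 5 kb, 21 overlapped a promoter window, as the IGF2BP3 one did. These widths chose the gene, and a wider interval has room for more peaks. Both the widths and the peak numbers are therefore given as a description. Peak numbers were not compared with those of shared peaks of like width.

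**Figure D3:**
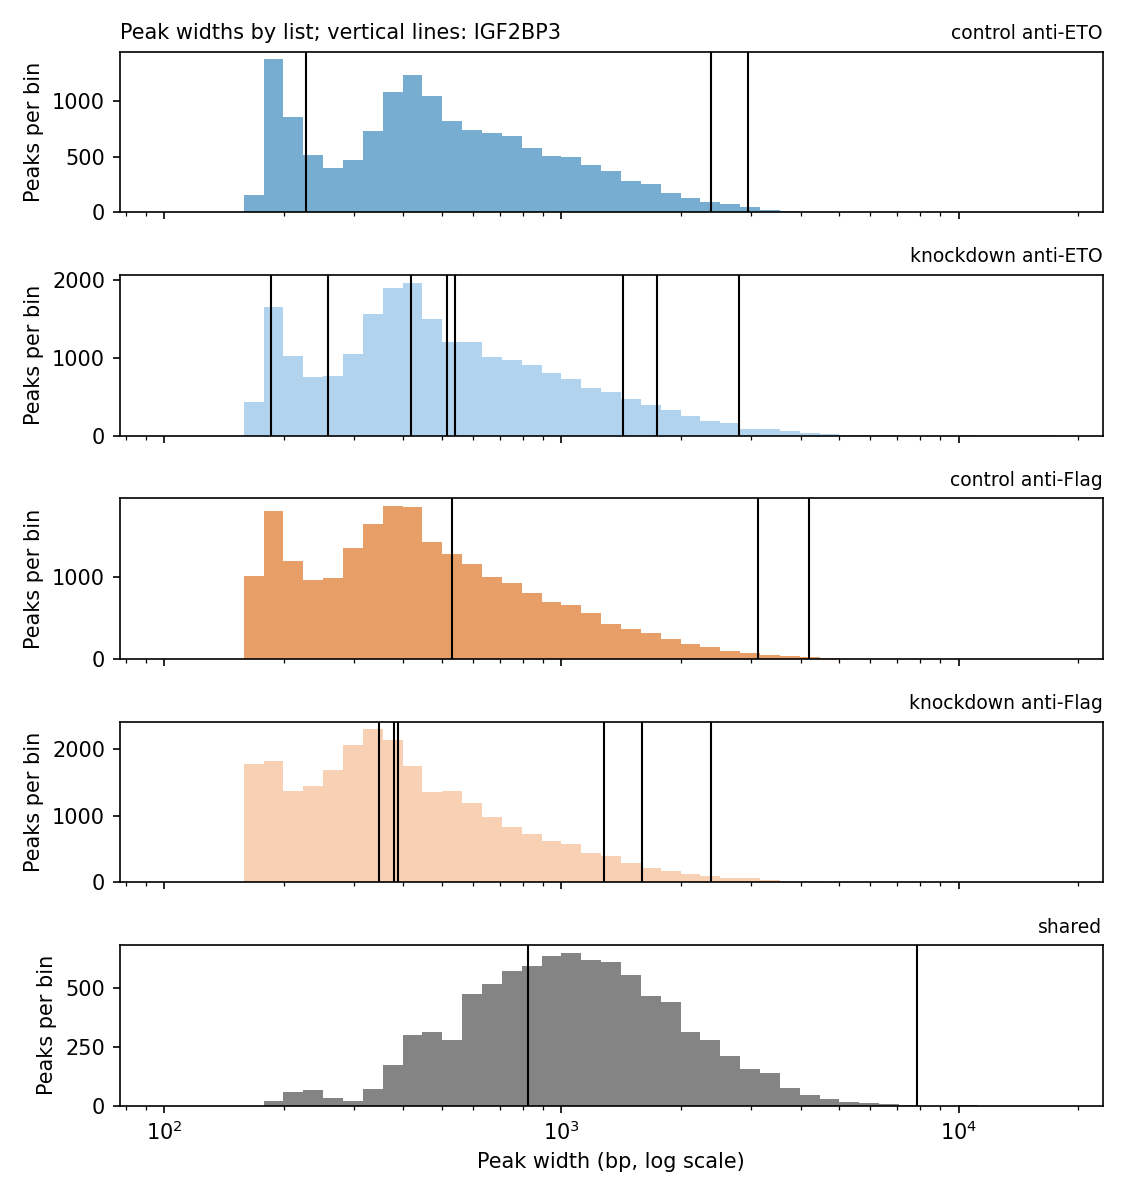
Peak widths in the 4 single-antibody lists and the shared list (bp, log scale; bars count peaks per width bin), with vertical lines at the widths of the IGF2BP3 peaks. The widest IGF2BP3 peak of each list, from 2382 bp in knockdown anti-Flag to 7866 bp in the shared list, sits in the right tail, and the inner peaks of 228 to 531 bp in the single-antibody lists lie further left.

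The inner site was less alike between lists. Of its 823 bp, 78 bp (9.48%) were called in all 4 lists and 444 bp (53.9%) in 1. The calls were offset from each other, with the knockdown anti-ETO peak reaching deeper into the gene (to 7.65 kb) and the control anti-Flag peak ending nearest to the gene start (6.83 kb).

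The surroundings of IGF2BP3 also differed between lists. Just outside the 10-kb window, control anti-Flag had a peak 10.6 kb beyond the far end of the gene (23299372 to 23299592), inside MALSU1, a gene for a mitochondrial ribosome assembly factor. On the upstream side, control anti-ETO, knockdown anti-ETO and control anti-Flag each had a peak 20.0 kb from the gene start (23490535 to 23490713 in control anti-ETO). Knockdown anti-Flag had neither, and its nearest peaks outside the window were 1.36 Mb and 1.10 Mb away. In that list the IGF2BP3 peaks therefore stood alone in a stretch of 2.63 Mb.

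Over all genes, 37.3% had a peak in each of the 4 lists, and 30.9% of genes of at least 100 kb. By covered length IGF2BP3 ranked 172 among 19974 genes for control anti-ETO, 286 for knockdown anti-ETO, 272 for control anti-Flag and 662 for knockdown anti-Flag. Most of that length is in the wide interval on which the gene was selected, so these ranks are descriptions too. The median over genes with a peak was 976 to 1336 bp. The genes most like IGF2BP3, by the smallest Euclidean distance between log2(covered bp + 100) in the 4 lists, were CDHR2 (distance 0.11), OPRL1 (0.15) and RGS19 (0.17). CDHR2 had 5629 and 8223 bp with anti-ETO and 7381 and 6269 bp with anti-Flag, in control and knockdown. The windows of OPRL1 and RGS19 overlap, so these genes share peaks.

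IGF2BP1 (gene ID 10642, chromosome 17, 48996558 to 49056145) spans 59.6 kb and had a single call. Control anti-Flag had a peak of 779 bp (49032155 to 49032933), wider than 79.1% of its list, and the other 3 lists had 0. The peak lay inside the annotated gene, 35.6 kb from its lower and 23.2 kb from its upper end, and overlapped no other annotated gene. With 1 antibody in 1 condition, it entered neither dual-antibody list. A call in control anti-Flag and in no other list was found for 301 genes (1.51%). The genes most like IGF2BP1 by the same measure were CYP2A6 (distance 0.03), LINC02210-CRHR1 (0.05) and OR2V2 (0.06), each with 758 to 814 bp in control anti-Flag and 0 in the other lists. Outside the window, all 4 lists had their nearest peaks about 87.1 kb below and 136 kb above the gene.

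IGF2BP2 (gene ID 10644, chromosome 3, 185643130 to 185825042) spans 182 kb and had 0 peaks in every list. The antisense gene IGF2BP2-AS1 and MIR548AQ, which lie within it, had 0 as well. The nearest peaks were those at the start of the neighbouring gene SENP2, a SUMO protease gene, which all 4 lists called about 56.1 to 56.3 kb below IGF2BP2 (185586339 to 185587014 in control anti-ETO). Above the gene, the nearest peak of any list was 282 kb away. IGF2BP2 thus lay in a stretch of 0.52 Mb between peaks.

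LIN28B (gene ID 389421, chromosome 6, 104937026 to 105083332) spans 146 kb and also had 0 peaks in every list. LIN28B-AS1, which overlaps the lower end of the annotated gene, had 0. On the upper side a peak lay 53.3 kb away with control and knockdown anti-ETO and 53.5 kb away with control anti-Flag, and 1.00 Mb away with knockdown anti-Flag. On the lower side the nearest peak of any list was 5.32 Mb away (99614549 to 99614792). The stretch between peaks that holds LIN28B was 5.52 Mb long, ranked 45 by length among 35597 such stretches with a median of 3.41 kb, and held 6 protein-coding genes in full, LIN28B included.

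No call in any single-antibody list was found for 41.6% of all protein-coding genes and for 46.2% of those of at least 100 kb, so the pattern of IGF2BP2 and LIN28B is a common one. Of 5 annotated pseudogenes of IGF2BP2 and IGF2BP3, 0 had a peak within 10 kb. Whether reads from similar sequence play a part in any call was not tested.

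The circuit around these genes was described with 5 lists holding 58 genes in all. Of the 58 genes, 3 were called in control alone, each by anti-Flag only. That pattern was found for 1.51% of all protein-coding and 1.14% of all annotated genes. A further 5 were called in knockdown alone, and the share of all genes with such calls was not counted. The knockdown lists held more peaks, 1.58 times as many for anti-ETO and 1.12 times for anti-Flag. The first list holds 8 genes that act with LIN28B or process let-7. Of these, 3 had a peak with control anti-ETO, 5 with knockdown anti-ETO, 6 with control anti-Flag and 5 with knockdown anti-Flag, the shares of all protein-coding genes being 47.6%, 53.8%, 50.2% and 42.2% in the same order. DGCR8, the partner of the nuclease DROSHA in microRNA processing, had calls in all 4 lists, with 1631 and 3349 bp covered by anti-ETO and 1785 and 4002 bp by anti-Flag in control and knockdown. TUT4 and TUT7, which add uridines to let-7 precursors held by LIN28 proteins, were also called in all 4. TUT4 had 2 shared peaks, while TUT7 had 0, with 2 control-unique and 1 knockdown-unique. DIS3L2, the nuclease that degrades the uridylated precursor, and DICER1 were called in none. LIN28A, the paralog of LIN28B, had 0 peaks with control anti-ETO, 3 with knockdown anti-ETO, 2 with control anti-Flag and 3 with knockdown anti-Flag, and 2 knockdown-unique peaks. DROSHA had 1 peak, in control anti-Flag.

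Of 12 let-7 family genes, 4 had a peak with control anti-ETO, 6 with knockdown anti-ETO, 5 with control anti-Flag and 6 with knockdown anti-Flag. Such short genes are better read against all annotated genes, of which 26.3%, 30.5%, 28.6% and 24.1% had one, in the same order. MIRLET7A1, MIRLET7F1, MIRLET7G and MIRLET7I were called in all 4 lists, as were 20.2% of all annotated genes. The windows of MIRLET7A1 and MIRLET7F1 share peaks. MIRLET7D, which lies near them on chromosome 9, had 0 peaks in every list. MIRLET7A3 and MIRLET7B, neighbours that share their peaks, had 0 calls in control and 1 per antibody in knockdown, of 485 bp with anti-ETO and 488 bp with anti-Flag, and 1 knockdown-unique peak. MIRLET7E had 1 peak, in control anti-Flag. The mature microRNAs of these called genes are shown because LIN28B acts on their precursors; capitals mark the seed (bases 2 to 8), which all 6 share, and sequences are from RefSeq (GRCh38.p14), 5′ to 3′.
hsa-let-7a-5p: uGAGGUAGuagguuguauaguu
hsa-let-7b-5p: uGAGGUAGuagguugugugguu
hsa-let-7e-5p: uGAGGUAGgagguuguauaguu
hsa-let-7f-5p: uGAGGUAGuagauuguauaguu
hsa-let-7g-5p: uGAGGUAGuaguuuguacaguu
hsa-let-7i-5p: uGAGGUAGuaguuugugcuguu

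Among 14 known let-7 target genes, 10 had a peak with control anti-ETO, 13 with knockdown anti-ETO, 12 with control anti-Flag and 11 with knockdown anti-Flag. Of all protein-coding genes 47.6%, 53.8%, 50.2% and 42.2% had one, respectively. HMGA2, the target that links LIN28B to fetal stem cells, was the 1 gene with no call. Its paralog HMGA1 had 3, 5, 3 and 3 peaks in control anti-ETO, knockdown anti-ETO, control anti-Flag and knockdown anti-Flag. The largest covered lengths were at ARID3A, a DNA-binding protein gene, with 5810 and 12763 bp for anti-ETO and 10775 and 14747 bp for anti-Flag in control and knockdown. ARID3B, HRAS and HMGA1 followed. CDC25A, a phosphatase of the cell cycle, was called in knockdown alone, with 553 bp for anti-ETO and 335 bp for anti-Flag.

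Of 14 genes for m6A writers, erasers and readers, 8 had a peak with control anti-ETO, 11 with knockdown anti-ETO, 10 with control anti-Flag and 7 with knockdown anti-Flag, beside 47.6%, 53.8%, 50.2% and 42.2% of all protein-coding genes. WTAP, a subunit of the methylase complex, had the most bases covered, with 2299 and 4408 bp for anti-ETO and 3484 and 3267 bp for anti-Flag in control and knockdown. HNRNPA2B1, RBM15 and YTHDF1 were also called in all 4 lists. METTL3, the catalytic subunit, was called in knockdown alone (368 bp with anti-ETO, 278 bp with anti-Flag), as was YTHDC2, with anti-ETO alone, and YTHDF2 was called with control anti-Flag alone. The demethylase genes FTO and ALKBH5 had calls in 3 lists and 0 with knockdown anti-Flag, with 2 and 1 control-unique peaks. VIRMA, of the same m6A list, also had 0 with knockdown anti-Flag and control anti-ETO, and 2 in each other list. Among genes of at least 100 kb, as FTO is, knockdown anti-Flag called 33.3% and control anti-Flag 45.8%. The share of all genes with the pattern of FTO and ALKBH5 was not counted.

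Among 10 known RNA targets and partners of IGF2BP proteins, 8 had a peak in each of the 4 lists taken singly, where 42.2% to 53.8% of all protein-coding genes did. H19, PABPC1, ELAVL1 and SYNCRIP had the most bases covered. IGF2, the RNA that gave the family its name, had 1 peak in each anti-Flag list and 0 in both anti-ETO lists, and CD44 had 0 in all.

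**Figure D4:**
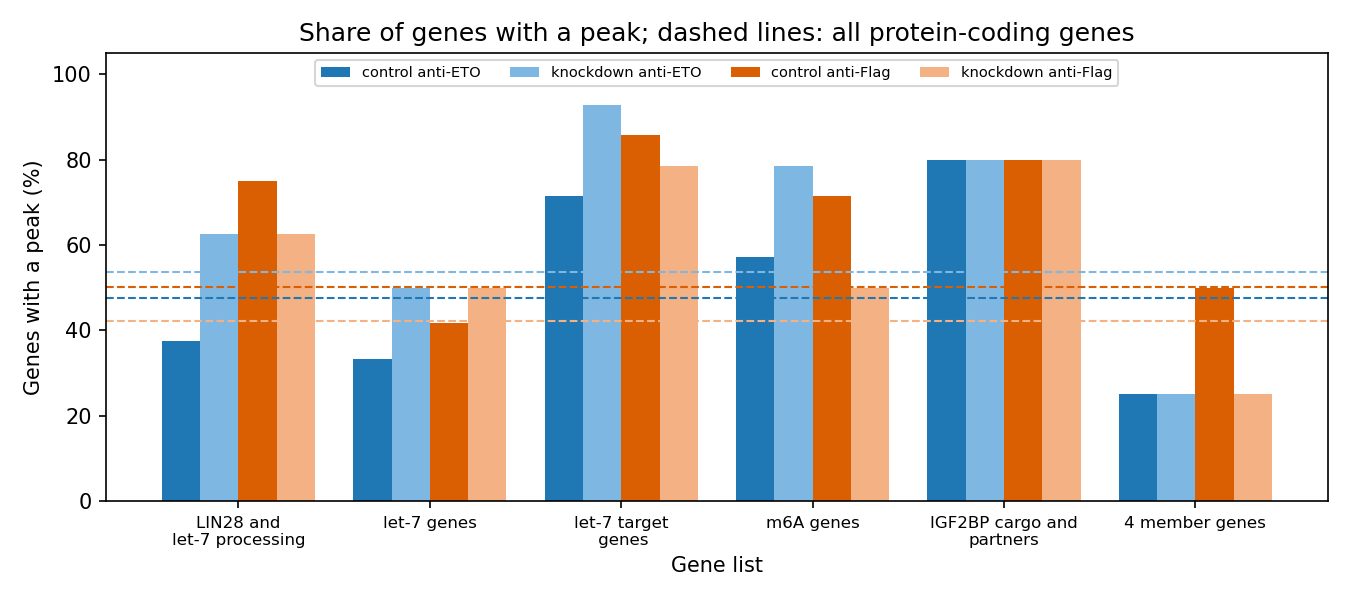
Share of genes (%) with a peak in the body or within 10 kb, for the 5 related gene lists and the 4 genes described here, with 1 bar per single-antibody list and dashed lines at the share of all protein-coding genes in the same colour. All bars of the let-7 target, m6A and IGF2BP cargo lists lie above their dashed lines. In the LIN28 and let-7 processing list, the control anti-ETO bar lies below its line and the other bars lie above. The gene lists were chosen with earlier results of these data known, so nothing is read from these positions. The bars of the 4 genes lie at 25% or 50% because the group holds 4 genes. Let-7 genes are short, so the dashed lines do not apply to them.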

How the data were processed

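CUT&RUN libraries were made from 200000 sorted Kasumi-1 cells per condition. Per the labels, fragments of 150 to 400 bp were sequenced as paired 75-bp reads to reach about 40 M reads per library. The submitters' processing notes name fastp 0.19.5, Bowtie2 2.3.5, MACS2 2.2.5, HOMER 4.8 and the builds hg38 and sacCer3, without roles; the peak threshold, the use of IgG and the pooling of replicates are not given in the sources used here. The 9 deposited files hold intervals (chromosome, start, end) with no other value, and positions are printed counted from 1. The derived shared and unique lists are the authors' own.

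Peaks were assigned to RefSeq genes (GRCh38.p14) with Python 3.11.15, numpy 2.4.6 and pandas 2.3.3; bedtools 2.31.1 gave the same gene counts for all 4 single-antibody lists. Interval functions passed 11 of 11 checks on 2000 simulated intervals. Gene shares are over 19974 protein-coding or 59098 annotated genes. The members and gene lists were chosen with earlier results of these data known. Named genes are the members, up to 4 per related list called in all 4 lists by covered length, those called in 1 condition, the 3 most like each member, and genes in a member's window. DIS3L2, DICER1, LIN28A, HMGA2, FTO, ALKBH5, IGF2 and CD44 were also named after their values were seen, for their roles. MIRLET7D was named in the same way, for its place near MIRLET7A1 and MIRLET7F1, and VIRMA for its lack of a knockdown anti-Flag call. Alternatives were other flanks, assignment by centre, shortened lists, joined peaks, other overlaps and other gene sets.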

Additional observations from a re-analysis of the deposited data

How the results depend on the processing

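No paired analysis was possible because each group has 1 list that names no replicate, and for the same reason no replicate could be left out. Read depth behind the calls is unknown, which limits how firmly a missing call can be read. IGF2BP2 and LIN28B had 0 peaks in every list under every alternative run here, and IGF2BP1 its 1 peak in control anti-Flag. The 2 regions called in both conditions and by both antibodies stayed 2 with an overlap of 100 bp, with 50% of both peaks and with gaps of 500 bp, the last added after the data were seen. Of 116 alternative values of the main results, 91 lay within 1.5 times the main value, 23 moved further and 2 changed direction. Both of these were the knockdown minus control number of anti-Flag peaks at the 4 genes, which was 2 (4 control and 6 knockdown peaks). It was -1 with the gene body alone (3 and 2 peaks, of which IGF2BP3 had 2 and 2) and -2 with 50-kb flanks (8 and 6). It was 1 with the wider 50% of each list (4 and 5) and 0 with peaks closer than 500 bp joined (3 and 3). For anti-ETO this difference was 5 (3 and 8 peaks). It was 3 with the gene body alone (2 and 5), with lists of equal length (3 and 6), with the wider 50% (2 and 5) and with joined peaks (2 and 5), and 7 with 50-kb flanks (5 and 12). With the gene body alone, the knockdown minus control covered lengths were 1540 bp (anti-ETO) and -954 bp (anti-Flag), since that window leaves out the upstream part. Most of the -954 bp is the 779-bp IGF2BP1 peak. IGF2BP3 alone had 940 bp in control and 765 bp in knockdown. With 50-kb flanks, the anti-Flag difference was -3517 bp and the control-unique list had 2 peaks at 1 gene, IGF2BP3. With the wider 50% the shared list had 1 peak. Over all annotated genes, the background shares were 26.3% and 30.5% for control and knockdown anti-ETO and 28.6% and 24.1% for control and knockdown anti-Flag.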
